A study of Oryza sativa with 6 samples.

Results

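The heat shock factors and heat shock proteins of rice were followed at the feeding site of the Asian rice gall midge. Members were the probe sets of the Affymetrix Rice Genome Array whose annotation gave 1 gene named HSF or HSP plus a number (for the factors, also with the class letter A, B or C). There were 64 such probe sets among the 57381 on the array, for 43 of the 17905 genes that a probe set names alone. They comprised 29 probe sets of 20 factor genes, 26 of 19 small HSP genes (a size in the name under 30) and 9 of 4 large HSP genes. The names covered 49 genes in all, and 6 of them had no probe set naming them alone, namely HSFA6A, HSFB4C, HSFC2B, HSP16.9C, HSP18.9 and HSP19.0.

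Both groups were the indica rice RP2068-18-3-5 (RP), which carries the recessive resistance gene gm3 and answers the avirulent biotype GMB1 with a hypersensitive response, the local death of host tissue. Infested plants (RP-I) had been exposed at an age of 15 days to 25 female and 10 male midges of GMB1. Un-infested plants (RP-UI) of the same age were not exposed, and all trays went to a humidity chamber 48 h after the release. A stem region of 1 cm was excised at the maggot feeding site, or at the matching place in RP-UI, at 24, 48 and 72 hours after infestation (hai). Each array joined the 3 time points of 1 tray, so that a response confined to a single time was averaged with the others. There were 3 arrays a group, each from a tray of its own, and values are RMA signals on the log2 scale. The comparison of RP-I with RP-UI asks which transcripts differ in the resistant host once maggots feed.

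Heat shock factors are transcription factors that bind the heat shock element in the promoters of chaperone genes. Plants hold many of them, in classes A, B and C. Class A factors activate transcription, many class B factors repress it, and class C factors are the least studied. Small HSPs hold unfolding proteins in solution, HSP101 pulls proteins out of aggregates, and Hsp90, named HSP81 or HSP82 in rice, folds signalling proteins, among them plant immune receptors. The genes respond to heat and also to oxidative stress, and in unstressed leaves most small HSPs are expressed at low levels.

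Of the 64 members, 1 probe set named for a factor rose and 1 fell in RP-I at an adjusted p under 0.05. Of the 51532 probe sets tested, 0.563% passed. All 64 had passed the filter on low signal, which lay at 3.38. Some lay close to it, such as HSP23.2 and probe sets of HSP17.7 and HSFB2B. The members that passed were HSFA2C on 1 of its 2 probe sets, which was higher, and HSFA2B, which was lower. No small and no large HSP passed. With the replicate number as a block, 6 members passed, 5 of them higher and 1 lower, where 8.50% of all probe sets did. The 4 that passed under the block alone were HSFA2D on 1 of 2 probe sets, HSFC1A, HSFC2A and HSP17.9B. The labels do not say that arrays of a number belong together, so these 4 calls depend on a pairing read from the values. The gene records named HSFA2C and HSFA2D also carry the name of an enzyme, so their calls do not belong with certainty to heat shock factors.

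At an unadjusted p of 0.05 or under, 9 members (14.1%) passed, where 14.2% of all probe sets did. The share was 24.1% for the factors, 7.69% for the small HSPs and 0 of 9 for the large HSPs. With a 2-fold difference besides, 6 members passed, against 5.56% of all. Every RP-I array lay above every RP-UI array for 7 members, where this held for 9.12% of all probe sets, and below for 4, where it held for 9.73%. The median log2 difference, RP-I minus RP-UI, was 0.05 for the factors, 0.15 for the small HSPs and -0.04 for the large HSPs, beside 0.01 over all probe sets tested. On average 15 of 29 factor probe sets, 16 of 26 of small HSPs and 3 of 9 of large HSPs were higher in RP-I, where 51.4% of all probe sets were. The median standard error of the members was 0.33, beside 0.20 over all probe sets, so that a typical member varied more between trays of a group. It was 0.38 for the factors, 0.32 for the small HSPs and 0.19 for the large HSPs.

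**Figure D1:**
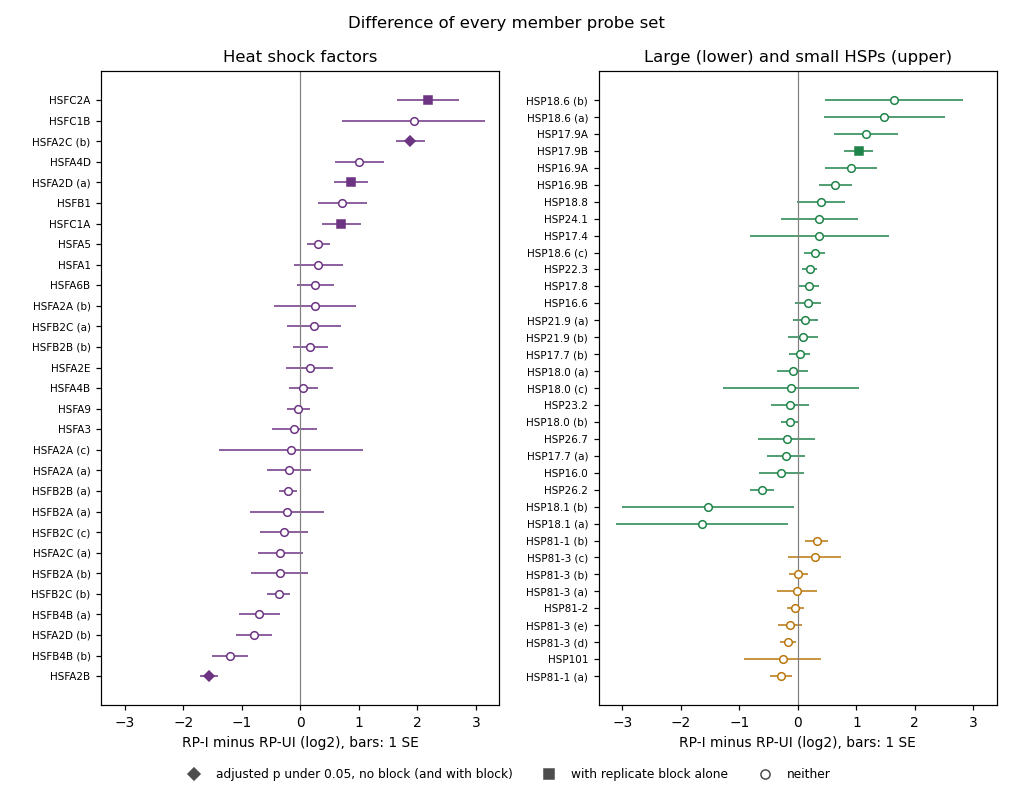
Log2 difference, RP-I minus RP-UI, of each of the 64 probe sets (points) with 1 standard error (bars), factors at left, small and large HSPs at right; letters in brackets tell the probe sets of a gene apart, in the order of their names. Filled diamonds passed an adjusted p of 0.05 with and without the block and filled squares with it alone, and the widest bars belong to HSP18.1, HSFA2A, HSFC1B, HSP17.4, HSP18.0 and HSP18.6.

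Before the members, the state of the arrays bears on their values. Signals of the 6 arrays correlated at 0.919 to 0.990. The array maker's control probe sets are left out. Their median was 8.11 on RP-I 3 and 7.30 to 7.52 on the other arrays, and what lies behind this was not tested. RP-I 3 and RP-UI 3 varied most and had weights of 0.35 and 0.471 when arrays were weighted by their fit, where the weights of the other 4 ran from 1.15 to 2.26. RP-UI 2 stood apart in the heat shock members themselves. Marker genes of other cell states moved with the groups. Of 26 probe sets of dividing cells, 7 fell (13 with the block), with a summed signal of 8138 to 12559 in RP-I and 26858 to 32615 in RP-UI. Of these 26, 6 were higher on average in RP-I, at 0.06 to 0.46, including probe sets of KRP4 and KRP6, inhibitors of cyclin-dependent kinases. For mesophyll, 0 of 10 passed (1 fell with the block, and 3 had an unadjusted p up to 0.05) and the sums were 9746 to 16871 in RP-I and 24092 to 33460 in RP-UI. Of these 10, 4 were higher on average in RP-I, all of RBCS, at 0.00 to 0.41, while CAB2R and RCA were lower, at -1.59 to -0.69. For secondary walls, 0 of 5 passed (4 at the unadjusted p), with sums of 1022 to 3147 in RP-I and 4345 to 4999 in RP-UI. For the shoot meristem, 1 of 6 rose (2 with the block), with sums of 1159 to 1450 in RP-I and 569 to 759 in RP-UI. Among the marker probe sets tested, the lowest mean signal was 3.62, for mesophyll, near the filter on low signal at 3.38. Fewer cells of a type and less RNA per cell cannot be told apart in such tissue, and the part of these shifts in the members' differences was not tested.

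Among the class A factors, HSFA2B gave the clearest difference. It belongs to the A2 class, whose Arabidopsis member HSFA2 amplifies the heat response. Its probe set read 5.92, 5.75 and 6.08 in RP-I 1 to 3, against 7.65, 7.51 and 7.27 in RP-UI 1 to 3. The groups were far apart, with an SD of 0.17 in RP-I and 0.19 in RP-UI. HSFA2B thus fell by 1.56 on the log2 scale (SE 0.16, limma adjusted p = 0.0376, and 0.017 with the block), which is 2.94-fold lower in RP-I. Each of the 3 replicate pairs was lower. With an array left out it kept its direction, but its limma adjusted p then ran from 0.0414 to 0.228, and only without RP-I 3 was it under 0.05.

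HSFA2C had 2 probe sets, called a and b here in the order of their names on the array, as for other genes, and they disagreed. Probe set b, which passed, read 11.37, 11.00 and 10.77 in RP-I, against 9.23, 8.74 and 9.51 in RP-UI. All RP-I arrays lay over 1 log2 unit above all RP-UI arrays, and the signal rose by 1.88 (SE 0.25, limma adjusted p = 0.0478, and 0.0195 with the block), or 3.69-fold. Its adjusted p ran from 0.0519 to 0.228 with an array left out, so that the call was lost without any 1 array. Probe set a read 7.55, 8.72 and 8.23 in RP-I and 7.88, 8.86 and 8.79 in RP-UI, with overlapping groups and a difference of -0.34. The gene record behind both also carries the name ARD1, acireductone dioxygenase, an enzyme of methionine salvage, and the gene table lists it as a transcribed pseudogene. Which transcript each probe set reads is not given in the sources used here, so the rise belongs to that record and not with certainty to a heat shock factor.

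HSFA2D showed the same split. Its probe set a read 9.89, 9.46 and 10.35 in RP-I, against 8.90, 8.76 and 9.44 in RP-UI. The groups did not overlap, by a margin of 0.02 at its smallest, and the 3 pairs were higher by 0.99, 0.70 and 0.91. The difference of 0.87 (SE 0.29) had a limma adjusted p of 0.234 without the block and 0.0263 with it. Probe set b read 6.78, 6.11 and 5.57 in RP-I, against 6.96, 6.90 and 6.97 in RP-UI. There RP-I lay below RP-UI on every array, with a difference of -0.79 that did not pass (limma adjusted p = 0.305, and 0.137 with the block). This record, too, carries the name of an acireductone dioxygenase, ARD2.

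HSFA2A is the remaining A2 member whose probe sets stood out, though not between the groups. Its probe set c read 6.46, 7.86 and 6.33 in RP-I, against 5.36, 9.97 and 5.78 in RP-UI. The highest value was that of RP-UI 2 and the group means differed by -0.15, with an SE of 1.23. Without RP-UI 2 the difference was 1.32, with the limma adjusted p at 0.434. The other HSFA2A probe sets differed by -0.19 and 0.26, and RP-UI 2 was highest of the 6 arrays on both.

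HSFA4D, the rice gene Spl7, whose loss causes lesions that resemble a hypersensitive response, read 9.38, 8.62 and 7.97 in RP-I, against 7.85, 7.06 and 8.02 in RP-UI. Pairs 1 and 2 were higher by 1.52 and 1.56, while pair 3 differed by -0.06. The difference of 1.01 (SE 0.42) did not pass (limma adjusted p = 0.346, and 0.171 with the block). HSFA1, whose tomato counterpart is the master switch of the heat response, differed by 0.31 (SE 0.42), with overlapping groups. HSFA5, which restrains the A4 factors in other plants, differed by 0.31 (SE 0.20). HSFA3, which acts under DREB2A in Arabidopsis, differed by -0.10, and HSFA9, a factor of seed maturation in sunflower and Arabidopsis, by -0.03. HSFA2E, HSFA4B and HSFA6B differed by 0.16, 0.05 and 0.26. None of these 7 single-probe genes passed, with or without the block.

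Of the class B factors, none passed. HSFB2A belongs to the B2 class, whose Arabidopsis members repress the heat response. Probe set a read 11.14, 12.05 and 9.64 in RP-I, against 11.23, 11.76 and 10.53 in RP-UI. Probe set b read 9.83, 10.80 and 8.76 in RP-I, against 10.01, 10.42 and 10.01 in RP-UI. Replicate 3 was the lowest of RP-I on both, and the differences of -0.23 (SE 0.63) and -0.35 (SE 0.49) had limma adjusted p-values of 0.957 and 0.884. Without RP-I 3 they were 0.42 and 0.17.

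HSFB4B, of a class known in Arabidopsis from the patterning of roots, was the class B gene that differed most. Probe set b read 8.06, 7.10 and 8.03 in RP-I, against 8.94, 9.26 and 8.60 in RP-UI. All RP-I values lay below all RP-UI values, and the difference was -1.20 (SE 0.31, limma adjusted p = 0.145, and 0.0969 with the block). Probe set a pointed the same way, at -0.70 (SE 0.35, limma adjusted p = 0.472, and 0.0756 with the block), with groups that overlapped. HSFB1 differed by 0.72 (SE 0.42), with pairs of 0.60, 2.00 and -0.45. The 5 probe sets of HSFB2B and HSFB2C lay between -0.37 and 0.23.

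The 3 class C genes measured were all higher on average in RP-I. HSFC2A read 7.15, 7.98 and 7.86 in RP-I, against 4.31, 5.76 and 6.34 in RP-UI. RP-I 1, its lowest value there, still lay above every RP-UI array, and the pairs were higher by 2.84, 2.22 and 1.52. Its difference of 2.19 was the largest among the members (SE 0.53, limma adjusted p = 0.123), and it rose with the block (adjusted p = 0.0193). The fold was 4.57.

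HSFC1A read 6.10, 6.43 and 6.98 in RP-I, against 5.28, 5.83 and 6.30 in RP-UI. The groups overlapped, since RP-UI 3 lay above RP-I 1, but the pairs were higher by 0.82, 0.59 and 0.68. The difference of 0.70 (SE 0.33) had a limma adjusted p of 0.433 without the block and 0.037 with it. HSFC1B read 7.42, 8.80 and 11.28 in RP-I, against 6.59, 5.83 and 9.26 in RP-UI. Replicate 3 was far above the others in both groups, and the pairs were higher by 0.84, 2.98 and 2.02. Its difference of 1.94 (SE 1.22) had a limma adjusted p of 0.602 without the block and 0.0513 with it. Without RP-I 3 it was 0.89 and without RP-UI 3 it was 2.96. Replicates 1 and 2 of HSFC1B were in opposite order in the 2 groups, so that its spread was only partly shared by arrays of a number.

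**Figure D2:**
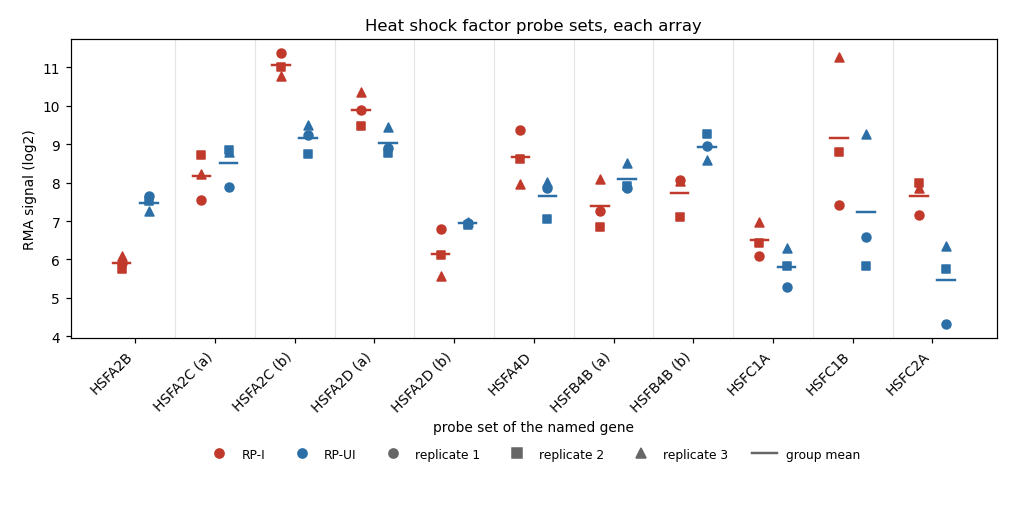
RMA signal (log2) of 11 factor probe sets on each array, RP-I at left and RP-UI at right of each pair; symbols mark the replicate number and lines the group means. HSFA2B and HSFA2C (b) separate by more than 1 log2 unit, while HSFC1A and HSFC1B overlap between groups but are higher in RP-I within each number.

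Among the small HSPs, 4 of 26 probe sets were higher on every RP-I array than on any RP-UI array and 1 was lower. Over all probe sets these shares were 9.12% and 9.73%. None of the 26 passed without the block. HSP17.9B was the one that rose with it. It read 9.81, 10.06 and 9.14 in RP-I, against 8.49, 8.76 and 8.65 in RP-UI. All RP-I arrays lay above all RP-UI arrays, with pairs of 1.32, 1.30 and 0.50, and the difference was 1.04 or 2.06-fold (SE 0.25, limma adjusted p = 0.125, and 0.0465 with the block).

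HSP17.9B lies on chromosome 1 in a run of neighbouring small HSP genes, HSP16.6, HSP17.9B, HSP16.9C, HSP16.9A and HSP16.9B, with no other gene between them. HSP16.9A, a class I cytosolic small HSP, read 7.38, 7.59 and 5.93 in RP-I, against 5.95, 6.38 and 5.86 in RP-UI. HSP16.9B read 5.30, 5.37 and 4.37 in RP-I, against 4.34, 4.46 and 4.30 in RP-UI. On both, RP-I 1 and RP-I 2 lay above every RP-UI array and RP-I 3 lay among them. Their differences were 0.91 (SE 0.45) and 0.64 (SE 0.28), with limma adjusted p-values of 0.459 and 0.384, and that of HSP16.6 was 0.17 (SE 0.22). Pair 3 had the lowest difference on HSP17.9B, HSP16.9A, HSP16.9B and HSP18.8, at 0.50, 0.07, 0.07 and -0.90. Without both arrays of replicate 3 these genes passed (limma adjusted p = 0.0276, 0.0332, 0.0367 and 0.0409). That fit called 2492 of 51532 probe sets. It was added after the data were seen and leaves out the lowest differences, so it does not test a rise. Without both arrays of replicate 1, or of replicate 2, 0 members passed, and 0 of all probe sets did. How far the probes of such similar neighbours read each other's transcripts was not tested, since the probe sequences were not used here.

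HSP17.9A was higher on every RP-I array without passing. It read 12.76, 12.55 and 13.38 in RP-I, against 10.49, 12.54 and 12.16 in RP-UI. The groups did not overlap, though RP-UI 2 lay within 0.02 of its partner in RP-I, and the low value of RP-UI 1 made much of the difference of 1.17 (SE 0.55, limma adjusted p = 0.426, and 0.185 with the block). On chromosome 3 it lies, with 4 genes between, beside the run HSP17.4, HSP18.1 and HSP17.7.

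HSP18.1, of the cytosolic class I, showed the widest spread of any member. Probe set a read 4.09, 4.36 and 4.13 in RP-I, against 4.12, 9.53 and 3.81 in RP-UI. Probe set b read 5.79, 6.03 and 5.93 in RP-I, against 5.48, 11.15 and 5.75 in RP-UI. The signal was low and even on 5 arrays and over 5 log2 units higher on RP-UI 2. The differences of -1.63 and -1.54 (SE 1.47 each) had limma adjusted p-values of 0.769 and 0.786, and without RP-UI 2 they were 0.22 and 0.30.

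Its neighbours showed a milder form of it. HSP17.4 read 8.83, 9.82 and 7.95 in RP-I, against 7.10, 11.29 and 7.10 in RP-UI. RP-UI 2 was the highest and the other RP-UI arrays the lowest of the 6, with a difference of 0.37 (SE 1.19). HSP17.7 read 9.56, 9.59 and 9.64 in RP-I, against 9.26, 10.51 and 9.61 in RP-UI, and differed by -0.20 (SE 0.32, limma adjusted p = 0.905).

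HSP18.6 had the largest positive differences of the small HSPs. Probe set b read 9.71, 11.55 and 10.10 in RP-I, against 7.36, 11.56 and 7.48 in RP-UI. Probe set a read 7.00, 9.08 and 8.96 in RP-I, against 5.15, 8.94 and 6.49 in RP-UI. In both, RP-UI 1 and RP-UI 3 lay below every RP-I array and RP-UI 2 lay level with RP-I 2. The differences were 1.65 (SE 1.18) and 1.48 (SE 1.03), with limma adjusted p-values of 0.671 and 0.657, and became 3.04 and 2.52 without RP-UI 2. Probe set c was higher on every RP-I array, by 0.29 (SE 0.18).

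HSP24.1, a small HSP of mitochondria, had the same shape. It read 9.94, 10.58 and 9.91 in RP-I, against 8.92, 11.32 and 9.07 in RP-UI. The difference was 0.37 (SE 0.65, limma adjusted p = 0.916), and 1.15 without RP-UI 2. HSP26.7, the small HSP of chloroplasts, read 4.03, 4.00 and 3.53 in RP-I, against 3.49, 5.19 and 3.45 in RP-UI. HSP26.2 went the other way, at 9.21, 9.24 and 8.79 in RP-I, against 9.62, 9.96 and 9.51 in RP-UI. It was lower on every RP-I array, by 0.61 on average (SE 0.20, limma adjusted p = 0.215, and 0.0582 with the block). The other small HSPs lay between -0.28 and 0.39.

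Of the 9 large HSP probe sets none passed, with or without the block, and none had an unadjusted p of 0.05 or under. HSP101, the disaggregase, read 8.09, 8.55 and 9.45 in RP-I, against 8.12, 10.39 and 8.36 in RP-UI. RP-UI 2 was again the highest array. The difference was -0.26 (SE 0.66, limma adjusted p = 0.95), and 0.45 without RP-UI 2.

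The probe sets of the Hsp90 genes differed little between the groups. HSP81-2 read 13.63, 13.50 and 13.78 in RP-I, against 13.59, 13.79 and 13.64 in RP-UI. HSP81-3 probe set b read 13.88, 13.70 and 14.13 in RP-I, against 13.85, 13.87 and 13.97 in RP-UI. Their differences of -0.04 (SE 0.14) and 0.01 (SE 0.16) were well within the spread between trays, with limma adjusted p-values of 0.966 and 0.994.

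HSP81-1 probe set a read 12.78, 12.89 and 12.80 in RP-I, against 12.78, 13.43 and 13.14 in RP-UI. Its probe set b read 8.44, 8.87 and 8.37 in RP-I, against 8.12, 8.13 and 8.48 in RP-UI. They differed by -0.29 and 0.32 (SE 0.19 each), with limma adjusted p-values of 0.619 and 0.591, so that the gene has no settled direction.

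For HSP81-3, probe set e read 12.98, 12.59 and 13.32 in RP-I, against 13.07, 13.25 and 12.96 in RP-UI. Probe set c read 6.75, 6.84 and 8.28 in RP-I, against 6.53, 7.07 and 7.39 in RP-UI. Probe set d read 4.71, 4.74 and 4.99 in RP-I, against 4.97, 5.04 and 4.93 in RP-UI. The groups overlapped on each, and all 5 probe sets of the gene lay between -0.17 and 0.29. HSP81-2 and HSP81-3 lie on chromosome 9 with 2 genes between them, and probe sets ending in s_at or x_at can read both.

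On many small HSPs the highest signal was that of 1 un-infested tray, since RP-UI 2 was the highest of the 6 arrays on 12 of 26 probe sets. Over all probe sets tested, RP-UI 2 was the highest of the 6 arrays on 18%. RP-UI 2 lay at least 2-fold above both other RP-UI arrays on 14 of the 64 members (21.9%), where this held for 1.01% of all probe sets. It held for 9 of 26 small HSP probe sets, 4 of 29 factor probe sets and 1 of 9 large HSP probe sets, in 10 genes. The factors were HSFA2A on all 3 probe sets and HSFB2C on 1 of 3. The small HSPs were HSP18.1, HSP17.4, HSP18.6, HSP18.0, HSP24.1, HSP26.7 and HSP16.0, and the large one was HSP101. Among the 51532 probe sets, those of HSP18.1 ranked 2 and 3 for the excess of RP-UI 2 over the higher of the other RP-UI arrays, 5.40 log2 units each. HSFA2A (c) ranked 18, HSP17.4 ranked 19, HSP18.6 (b) ranked 23 and HSP18.0 (c) ranked 35.

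HSP18.0 (c) read 6.81, 7.52 and 6.71 in RP-I, against 5.33, 9.97 and 6.11 in RP-UI, while on probe sets a and b of the gene RP-UI 2 had no 2-fold excess. The same count was 0 for RP-I 1, 2 for RP-I 2, 4 for RP-I 3, 0 for RP-UI 1 and 1 for RP-UI 3, beside shares of all probe sets of 0.146%, 0.431%, 4.84%, 0.0931% and 3.95%. RP-I 3 and RP-UI 3, which had such an excess most often over the whole array, therefore had it less often in the heat shock genes than RP-UI 2 did.

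**Figure D3:**
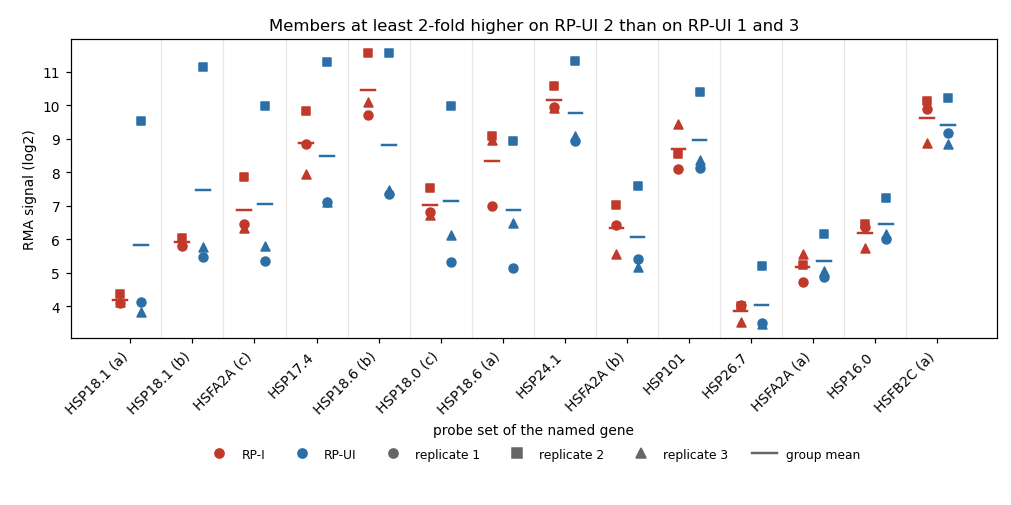
RMA signal (log2) of the 14 members that lay at least 2-fold higher on RP-UI 2 than on both other RP-UI arrays, in order of that excess, RP-I at left and RP-UI at right of each pair; squares are replicate 2 and lines the group means. RP-UI 2 stands alone on HSP18.1, and RP-I 2 is the highest RP-I array on most of the others.

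**Figure D4:**
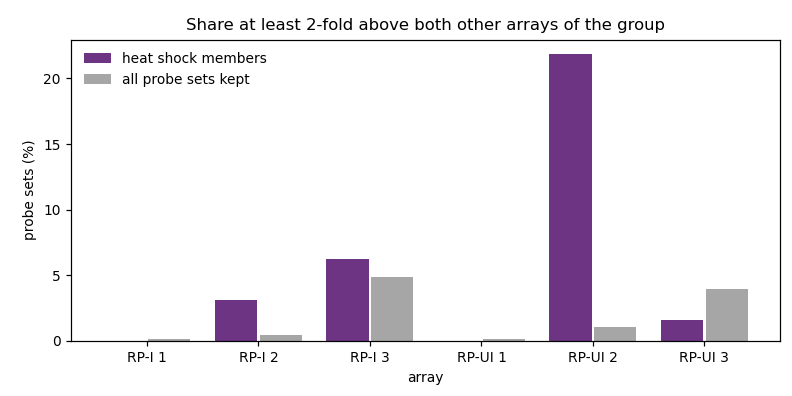
Share of probe sets (%) that lay at least 2-fold above both other arrays of the same group, for each array, in the 64 heat shock members and in all 51532 probe sets. The member bar of RP-UI 2 reaches 21.9%, beside 1.01% of all.

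The infested tray of the same number leaned the same way. Replicate 2 was the highest array in RP-I and also in RP-UI on 24 of 64 members (37.5%), beside 15.1% of all probe sets, and on 13 of 26 small HSP probe sets. The rise in RP-I 2 was smaller, since only 2 members lay 2-fold above both other RP-I arrays there. HSFA2A (c), for example, read 7.86 in RP-I 2 and 9.97 in RP-UI 2.

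Leaving out RP-UI 2 moved most small HSPs upwards. Then 24 of 26 small HSP probe sets were higher on average in RP-I, with a median difference of 0.22, where 27745 of 51532 probe sets were higher. The 9 small HSP probe sets chosen for their excess on RP-UI 2 had to move upwards in this. So did every other probe set on which RP-UI 2 lay above the mean of the other RP-UI arrays. RP-UI 2 was singled out for its high signals in these members, so the counts of fits without it do not test a rise. None of the 26 passed without RP-UI 2, in a fit in which 0 of all probe sets passed. At the unadjusted p there were 7 of 26 small HSP probe sets (26.9%), where 10.9% of all, or 5642, reached it, and the 7 include probe sets chosen for that excess. Without both arrays of replicate 2, 21 of 26 were higher, with a median of 0.23. In that fit, which also lacks RP-UI 2, 26945 of 51532 probe sets were higher, with a median of 0.02. Without RP-UI 1 the median of the small HSPs was -0.06, and without both arrays of replicate 1 it was 0.02. How the trays of replicate 2 differed from the others is not given in the sources used here and was not tested.

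**Figure D5:**
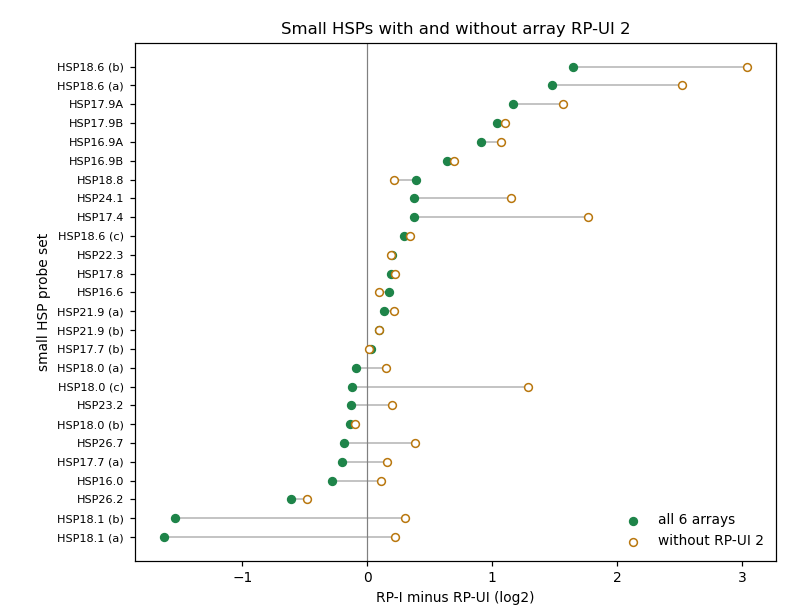
Log2 difference, RP-I minus RP-UI, of the 26 small HSP probe sets with all 6 arrays (filled) and without array RP-UI 2 (open). Both HSP18.1 probe sets, HSP18.0 (a and c), HSP16.0, HSP17.7 (a), HSP23.2 and HSP26.7 cross 0, HSP18.6 (a and b) and HSP17.4 move up by over 1 log2 unit, and HSP17.9B, HSP16.9B and HSP18.6 (c) hardly move.

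Of 14 genes with several probe sets, the differences had 1 sign in 6 and both signs in 8. Except for HSFA2C and HSFA2D, every difference of these 8 lay within 2 standard errors of 0. The signs were the same for HSFB2A, HSFB4B, HSP18.0, HSP18.1, HSP18.6 and HSP21.9. The widest splits were those of HSFA2C, from -0.34 to 1.88, and HSFA2D, from -0.79 to 0.87.

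Other genes of protein folding that were found by name gave few differences. No probe set naming 1 gene carried the names searched for Hsp70 outside the endoplasmic reticulum or for chaperonins, so these families were not examined. Of 7 Clp genes, which include ClpB relatives of HSP101, 0 passed with or without the block (1 at an unadjusted p of 0.05 or under), with a median of 0.05. Of 5 DNAJ co-chaperones, which hand substrates to Hsp70, 0 passed with or without it (0 at the unadjusted p), with a median of 0.22. Of 8 probe sets of heat response regulators and targets 0 passed (0 at the unadjusted p), and DREB2A, a factor that activates HSFA3 in Arabidopsis, differed by 0.02 (SE 0.62). RAR1 and SGT1, which work with Hsp90 in immunity, differed by -0.07 and 0.12, and 0 of them passed (0 at the unadjusted p). In CLPB3, a relative of HSP101 named after its values were seen, RP-UI 2 was also the highest array, at 7.24, 6.61 and 7.18 in RP-I, against 7.09, 8.64 and 6.69 in RP-UI.

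Of 15 probe sets for folding in the endoplasmic reticulum, 4 were higher on average in RP-I and 11 lower, with a median of -0.35. None passed without the block. At the unadjusted p there were 4 of 15, where 14.2% of all probe sets reached it. Of these, CRT1, PDIL1-2 and PDIL1-4 were lower, at -0.77, -1.07 and -0.64. BIP4, an Hsp70 of that compartment, was higher by 1.33 (SE 0.55, limma adjusted p = 0.351). With the block 1 of 15 passed, where 8.50% of all probe sets did. This was PDIL1-2, a protein disulfide isomerase, which fell. It read 6.33, 6.37 and 5.49 in RP-I, against 7.34, 7.50 and 6.56 in RP-UI, a difference of -1.07 (SE 0.34, limma adjusted p = 0.219, and 0.0172 with the block). BIP1, another Hsp70 there, differed by -0.72 (SE 0.31, limma adjusted p = 0.366). Of the 4 factors of its stress response, among them IRE1 at 0.46 (SE 0.12, limma adjusted p = 0.145), 0 passed (1 at the unadjusted p).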

How the data were processed

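Deposited by the authors were log2 signals from RMA, a single table with each array as a column. The labels name Affymetrix Expression Console beside RMA, and the methods name GeneSpring. Whether tissue or RNA of the 3 times was joined differs between the labels and the methods. No scan batch was given.

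Deposited log2 signals entered without change. The 123 control probe sets were left out, and 51532 with a mean at or above the 10th percentile over the 6 arrays were kept. RP-I was set against RP-UI with limma 3.58.1 (R 4.3.3), p-values being adjusted after Benjamini and Hochberg over all probe sets kept, with a threshold of 0.05. The fit was checked on simulated data with independent noise of equal spread on every array. That check does not cover the unequal spread and shared deviations of the real arrays. SDs are over the 3 arrays of a group.

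Arrays of the same number deviated together from their group means over all probe sets (r = 0.521, 0.308 and 0.624). Between different numbers r ran from -0.547 to 0.295. The highest of these, RP-I 2 with RP-UI 1, was close to the 0.308 of RP-I 2 with RP-UI 2. Deviations of 3 arrays from their own mean cancel out, so these r depend on each other. They set number 3 apart and do not show that numbers 1 and 2 pair. The labels give each tray only a number, so the pairing rests on these values, and calls made with the block alone depend on it. The fit with the number as a block is given where it changes a call.

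Gene names come from the array's annotation, in which 22436 probe sets name 1 gene, and from the RefSeq table of rice assembly ASM3414082v1, used for names, chromosomes and neighbours. Members and gene lists were chosen with earlier results of these data known, and names that matched a list by letters alone were removed. Every array's value is given for members with an adjusted p under 0.05 with or without the block, and in each class for the 5 largest differences and the 3 highest mean signals. Those of HSFA4D, HSFA2A, HSP16.9A, HSP16.9B, HSP17.4, HSP18.0, HSP26.2, HSP26.7 and the other probe sets of HSFA2C and HSFA2D were added after they were seen. Python 3.11.15 with pandas 2.3.3, numpy 2.4.6 and matplotlib 3.10.9 served for tables and plots.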

Additional observations from a re-analysis of the deposited data

How the results depend on the processing

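The precision is limited by 3 arrays a group. Over all probe sets, 290 passed, 4379 with the replicate block, 126 with each array centred on its median, 2675 with array weights and 87 with an intensity trend in the prior. With 1 array left out, or both arrays of a number (added after the data were seen), the count ran from 0 to 2492. In the fits with 0, between 3970 and 7977 probe sets had an unadjusted p of 0.05 or under. Of the heat shock probe sets, 2 passed, 6 with the block, 1 centred (HSFA2B), 4 with array weights, 0 with the trend, and 0 to 6 with arrays left out. With the trend, the limma adjusted p was 0.0549 for HSFA2B and 0.0645 for HSFA2C, and HSFA2C reached 0.0515 when centred. At the methods' thresholds 9 passed, and 6 with a 2-fold difference. The cause of these shifts was not tested.

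The median of the factors, 0.05, was 0.11 with each array at its own 10th percentile, 0.10 after quantile normalization again, 0.25 with 1 probe set a gene, and -0.08 to 0.21 with arrays left out. The medians of the small and large HSPs moved by less than their spread between pairs. That of the small HSPs, 0.15, ran from -0.06 to 0.23 with arrays left out, so that its sign was not settled. Of the 25 probe sets given in full by rule, 24 kept their sign under the 7 settings that leave out no array. The exception was HSP81-3 (b), at -0.01 after quantile normalization again or centring and -0.02 with array weights. With arrays left out, 14 kept their sign throughout. The others ran from -0.05 to 1.15 (HSP24.1), -0.47 to 0.17 (HSP17.7), -0.13 to 0.08 (HSP81-2), -0.10 to 0.11 (HSP81-3 b), -0.20 to 0.56 (HSP81-3 c), -0.38 to 0.13 (HSP81-3 e), -2.63 to 0.22 (HSP18.1 a), -2.54 to 0.30 (HSP18.1 b), -0.78 to 0.42 (HSFB2A a), -0.85 to 0.17 (HSFB2A b) and -0.94 to 0.52 (HSP101).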
